A study of Mus musculus with 9 samples.

Results

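The interferon response genes are transcripts that cells make when interferons bind their receptors, and they were followed here in mouse small intestine with and without the transcription factor GATA4 in the epithelium. The list holds 39 genes, and their probe sets were taken as all those annotated to exactly 1 of the 39 symbols. Of the 39 genes, 37 had such a probe set (57 probe sets in all), and 36 had a probe set bright enough to be tested, out of 13830 genes tested on the arrays. Isg15, which encodes the ubiquitin-like modifier ISG15, was represented only by a probe set shared with another gene, and Ifi44 had no probe set under that symbol. Psmb11, a proteasome subunit of the thymic cortex, had log2 levels between 4.06 and 4.67 on the 9 arrays and was too dim to be tested. The study used total RNA from adult male mice 6 to 8 weeks old, with 1 array per mouse. Control jejunum and control ileum (n = 3 each) came from separate Gata4loxP/+VilCre mice, which carry 1 floxed and 1 wild-type copy of Gata4. Mutant jejunum (n = 3) came from Gata4loxP/-VilCre mice, which carry 1 floxed and 1 null copy. The VilCre transgene, carried by all 9 mice, drives Cre from the villin promoter in the intestinal epithelium, so the floxed copy was open to recombination in the controls too and cells outside the epithelium kept it. Jejunal tissue lay 10 cm beyond the pyloric sphincter, and ileal tissue lay 1 cm from the cecum.

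Type I and type III interferons act through different receptors on the same JAK-STAT route, in which a complex that holds STAT2 and IRF9 binds the interferon-stimulated response element of its target genes. Type II interferon (interferon gamma), made mainly by T and natural killer cells, acts at gamma-activated sites and is the strong inducer of the guanylate-binding proteins and immunity-related GTPases. In the gut, epithelial cells respond strongly to type III interferon, and a low level of interferon-stimulated transcripts is found without overt infection. Bulk RNA of a gut segment was measured, so fewer cells of a type and less RNA per cell cannot be told apart.

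The recognition sequences were looked for in the RefSeq promoters of assembly GRCm38.p6, from 250 bases before to 50 bases after each gene's start, which were held for 29 of the 39 genes. The response element core was searched as GAAANNGAAA and the gamma-activated site as TTCNNNGAA, on both strands. The core occurred in 16 of the 29 genes (55.2%), against 3.99% of 27025 genes. The gamma-activated site occurred in 7 of the 29 (24.1%), against 9.55% of all genes. The 7 were Bst2, Eif2ak2, Ifit2, Ifi35, Irf1, Irf8 and, of the GTPases, Igtp alone. The site was thus held by 1 of 5 GTPases (20%) and 6 of 24 other members (25%). The core was held by 4 of the 5 GTPases and 12 of the 24 others. The core was present in Rsad2, Ifit1, Ifit3, Oas3, Bst2, Isg15 and Eif2ak2 among the antiviral effectors, and in Gbp2, Gbp3, Igtp and Irgm1 among the GTPases. It was also present in the sensor genes Ifih1 and Ddx58 and in Stat2, Socs1 and Trim30a. In Ifih1, Ddx58 and Eif2ak2 the match lay after the start of the gene. The windows of 41 bases below are shown because their genes carry the results that follow. The first 4 are antiviral effectors with wide mouse-to-mouse spread, and Gbp2, Gbp3 and Igtp are GTPases that ran in a different order over the mutant mice. Socs1 holds the core with a narrow spread, at log2 levels of 4.94 to 5.58, near the limit for testing (4.95). Ifih1, Ddx58 and Eif2ak2 hold the core too, with pooled within-group standard deviations of 0.38, 0.37 and 0.38. Oasl2 (0.79) and Irf7 (0.70) spread more widely and have no core in the promoter searched. A link between the core and the spread was not tested. Sequences run along the gene, and capitals mark the response element core on either strand or, for Igtp, the gamma-activated site.
Rsad2, chr12:26456547-26456587, minus strand: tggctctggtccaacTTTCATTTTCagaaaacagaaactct
Ifit1, chr19:34640789-34640829, plus strand: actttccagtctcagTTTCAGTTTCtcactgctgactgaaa
Ifit3, chr19:34583392-34583432, plus strand: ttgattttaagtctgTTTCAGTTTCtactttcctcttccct
Oas3, chr5:120777709-120777749, minus strand: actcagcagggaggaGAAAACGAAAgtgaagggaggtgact
Gbp2, chr3:142620589-142620629, plus strand: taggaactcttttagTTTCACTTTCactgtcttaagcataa
Gbp3, chr3:142559990-142560030, plus strand: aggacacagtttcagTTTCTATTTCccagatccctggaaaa
Socs1, chr16:10785588-10785628, minus strand: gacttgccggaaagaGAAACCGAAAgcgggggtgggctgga
Igtp (gamma-activated site), chr11:58199495-58199535, plus strand: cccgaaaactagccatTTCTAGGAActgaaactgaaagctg
The marked core ends 110 bases before the start of Rsad2, 75 before Ifit1, 112 before Ifit3, 65 before Oas3, 49 before Gbp2, 29 before Gbp3 and 67 before Socs1. Gbp3 and Socs1 hold a further core that overlaps the marked letters, and the core of Igtp lies 24 bases before its start, just after the gamma-activated site shown. A match describes letters and was not tested as a binding site. Promoters of Dhx58, Zbp1, Mx1, Mx2, Oas2, Iigp1, Usp18, Parp14, Ifi27 and Rtp4 were not analysed here.

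Markers of position along the gut separated control jejunum from control ileum. Fabp6, the ileal bile acid binding protein, had log2 levels of 4.64 to 5.02 in control jejunum and at least 13.65 in all mutant jejunum and control ileum samples. Lct, the brush border lactase of the proximal gut, was at 12.74 to 13.15 in control jejunum, 7.84 to 10.51 in mutant jejunum and 4.45 to 5.10 in control ileum. Mutant jejunum thus had Fabp6 at the ileal level and Lct between the control segments, so these markers do not check its tissue label. The brighter Gata4 probe set stood at 9.49 to 9.57 in control jejunum, 9.38 to 9.61 in mutant jejunum and 5.20 to 5.64 in control ileum. The place of that probe set relative to the floxed exons is not stated in the labels, so it checks the mutant label in neither direction. Ileum arrays were dimmer (trimmed mean intensity 96.8 to 121.6) than jejunum arrays (147.4 to 179.8), and mutant jejunum 3 stood apart from the other 8 arrays on the second principal component (-55.8, against -6.2 to 22.4). All levels below are quantile-normalized log2(intensity + 16) values, and a call is a limma p under 0.05 after Benjamini-Hochberg adjustment over all 29307 probe sets tested.

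Deletion of Gata4 in the jejunum was compared first. None of the 36 interferon response genes was called between mutant and control jejunum, in a comparison that called 3.56% of all probe sets. The brightest probe set of none had an unadjusted limma p under 0.05, against 16.9% of all probe sets tested. The lowest adjusted p of a member was 0.429, for Oas3. The median log2 difference over the 36 genes was -0.15, with 12 genes above 0 and a range from -0.91 to 0.36, and the median over all probe sets tested was 0.00. The sign of that median rested on single mice, since it was 0.11 without control jejunum 1 and 0.095 without mutant jejunum 3. On the brightest probe set of each of the 36, the levels of the 3 mutant and the 3 control mice overlapped. The share of all probe sets with such overlap was not counted, so overlap here and below only describes the levels. The half-width of the unadjusted 95% interval had a median of 0.78 over the 36 genes against 0.41 over all probe sets tested. A call also needs adjustment over all probe sets tested. For many members, differences of that size or somewhat larger could thus go uncalled with 3 mice a group.

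**Figure D1:**
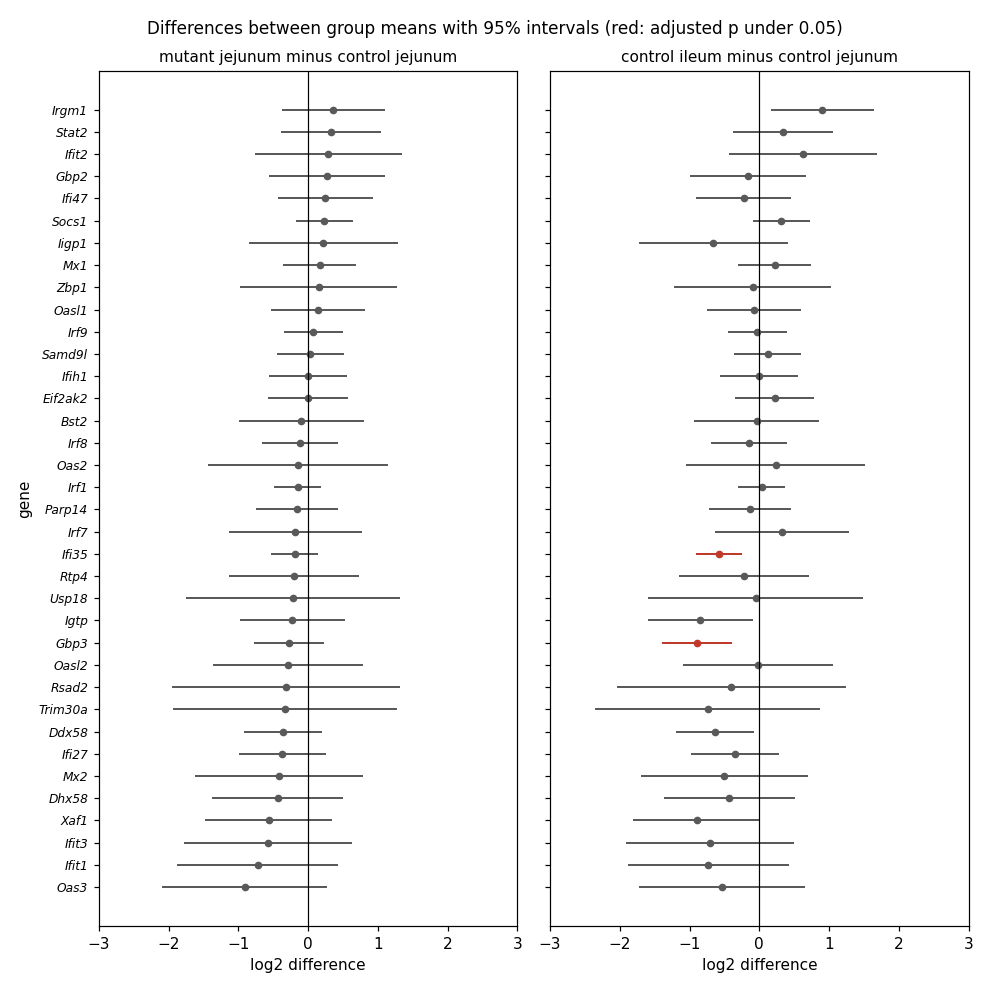
Log2 differences with 95% intervals from limma for the 36 interferon response genes, mutant minus control jejunum on the left and control ileum minus control jejunum on the right (n = 3 mice each); red marks an adjusted p under 0.05. All 36 intervals on the left include 0, and Gbp3 and Ifi35 are the red genes on the right.

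The largest downward differences in the mutant were those of the antiviral effectors Oas3, Ifit1 and Ifit3. As a list the 13 effectors tested were not lower than the other members. Their median difference was -0.14, with 4 above 0, against -0.15 over all 36 genes. Oas3, an oligoadenylate synthetase that activates RNA decay by RNase L, was at 9.24, 8.17 and 8.65 in control jejunum 1 to 3, at 8.23, 8.33 and 6.77 in mutant jejunum 1 to 3, and at 8.19, 9.22 and 7.03 in control ileum 1 to 3. Mutant jejunum 3 was the lowest of all 9, and the other mutant mice lay within the control range. The mutant minus control difference was -0.91 (95% interval -2.08 to 0.26, adjusted p = 0.429), and -0.41 without mutant jejunum 3 (adjusted p = 0.739).

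The IFIT proteins bind viral RNA and block its translation. Ifit1 was at 10.82, 9.56 and 10.32 in control jejunum, at 9.67, 10.27 and 8.60 in mutant jejunum, and at 8.94, 10.67 and 8.89 in control ileum. Ifit3 was at 9.35, 7.90 and 8.80 in control jejunum, at 8.17, 8.94 and 7.23 in mutant jejunum, and at 7.55, 9.15 and 7.22 in control ileum. Both genes were highest in the same mouse of each group, with the groups overlapping throughout. The mutant minus control differences were -0.72 for Ifit1 (adjusted p = 0.532) and -0.57 for Ifit3 (adjusted p = 0.656). Control ileum lay at -0.73 (adjusted p = 0.369) and -0.71 (adjusted p = 0.408) from control jejunum, and leaving out 1 mouse moved these differences to between -1.32 and -0.43 for Ifit1 and between -1.30 and -0.33 for Ifit3. Ifit3 has near-identical copies in the mouse genome, and its probe set may detect them too. Ifit2 ran at 7.17, 6.83 and 6.60 in control jejunum, 7.02, 7.89 and 6.56 in mutant jejunum, and 6.63, 8.73 and 7.12 in control ileum. Its ileal difference was 0.63 (adjusted p = 0.403), and without control ileum 2 it was 0.01.

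Among the sensors of viral nucleic acid, Ddx58, which encodes RIG-I, was at 9.44, 8.96 and 9.41 in control jejunum, at 9.10, 9.26 and 8.36 in mutant jejunum, and at 8.50, 9.03 and 8.37 in control ileum. Its levels in control ileum reached into the control jejunum range only through control ileum 2. The difference was -0.63 in ileum (adjusted p = 0.106) and -0.36 in the mutant (adjusted p = 0.505), and without mutant jejunum 3 the ileal difference was called (adjusted p = 0.0393). On the other 2 Ddx58 probe sets, both dimmer, the mutant mice lay below the control jejunal mice with no overlap, with differences of -0.56 (limma adjusted p = 0.305) and -0.57 (limma adjusted p = 0.107). Neither was called, and the second had an unadjusted limma p under 0.05. Ifih1, the RNA sensor MDA5, spanned 9.65 to 10.54 over all 9 mice, and Dhx58, the related regulator LGP2, spanned 5.49 to 7.45. Of the transcription factors, Irf1 lay between 10.01 and 10.60, Irf9 between 8.01 and 8.76, Irf8 between 9.15 and 10.25 and Stat2 between 7.11 and 8.59, while Irf7, the amplifier of type I interferon production, ranged from 9.02 in mutant jejunum 3 to 11.25 in control ileum 2.

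Of the 36 genes, 2 were called between control ileum and control jejunum, a comparison that called 16.2% of all probe sets. Both were lower in ileum, the direction of 7.86% of all probe sets. Gbp3, a guanylate-binding protein of cell-autonomous defence, stood at 7.37, 7.20 and 7.11 in control jejunum, 6.64, 6.87 and 7.37 in mutant jejunum, and 6.14, 6.76 and 6.10 in control ileum. All 3 ileal mice lay below all 3 control jejunal mice, and the mutant mice covered the gap between them. The fall by 0.90 on the log2 scale had a 95% interval of -1.38 to -0.41 (limma adjusted p = 0.019). Ifi35, an interferon-induced leucine zipper protein, stood at 12.17, 12.12 and 11.95 in control jejunum, 11.90, 12.07 and 11.69 in mutant jejunum, and 11.29, 11.82 and 11.39 in control ileum. The control segments did not overlap, and Ifi35 fell by 0.58 in ileum (95% interval -0.90 to -0.26, limma adjusted p = 0.0211). Its other 2 probe sets differed by -0.59 (adjusted p = 0.0834) and -0.47 (adjusted p = 0.166) and were not called, and on the second of these the mutant mice lay below the control jejunal mice with no overlap (adjusted p = 0.402).

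Both calls were lost when control jejunum 1, control jejunum 2, control ileum 1 or control ileum 3 was left out, with adjusted p between 0.0545 and 0.0672 for Gbp3 and between 0.0671 and 0.0737 for Ifi35. Of the 36 genes, 6 (16.7%) had an unadjusted limma p under 0.05 in this comparison, a smaller share than the 30.9% of all probe sets tested. Beside Gbp3 and Ifi35 these were Ddx58, Igtp, Irgm1 and Xaf1. Over the 36, the median ileal difference was -0.14, with 10 genes above 0, against 0.01 over all probe sets tested. That median went from -0.44 without control ileum 2 to 0.018 without control jejunum 1, 0.0081 without control ileum 1 and 0.023 without control ileum 3. The marker counts that follow are to be read against 7.86% of all probe sets called lower in ileum and 2449 of 29307 called higher. Markers of T cells were lower in ileum as well, 2 of the 5 tested being called lower. Their summed linear levels were 714 to 1110.5 in control jejunum, 946 to 1129 in mutant jejunum and 256 to 634 in control ileum. Markers of intraepithelial lymphocytes and natural killer cells were called lower in ileum for 5 of 7 tested, with summed levels of 5895 to 7844 in control jejunum, 6451 to 10100.3 in mutant jejunum and 1585 to 4176 in control ileum. The T cell markers Cd4 and Cd2 were too dim to be tested. Of 9 macrophage and dendritic cell markers, 2 were called lower in ileum, with summed levels of 4286 to 4537 in control jejunum, 3290 to 5860 in mutant jejunum and 3982 to 6282 in control ileum. Smooth muscle markers were called higher in ileum for 4 of 5, at 7098 to 9886 against 2860 to 4737 in control jejunum, and Paneth cell markers for 3 of 5, at 34263 to 47796 against 22444 to 30765. The part of all these cells in the ileal differences was not tested.

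The remaining GTPases of the interferon gamma response lay in both directions in ileum. Igtp, which acts at pathogen vacuoles, was at 10.19, 9.59 and 9.91 in control jejunum, 9.32, 9.87 and 9.81 in mutant jejunum, and 8.16, 9.79 and 9.20 in control ileum. Control ileum 1 was the lowest of the 9, and the ileal difference was -0.85 (adjusted p = 0.112). Irgm1, a regulator of the other immunity-related GTPases, lay in the opposite direction, at 9.16, 8.09 and 8.58 in control jejunum, 8.47, 9.36 and 9.09 in mutant jejunum, and 9.13, 10.18 and 9.23 in control ileum. The ileal range overlapped the jejunal one only at its lower edge, and the difference was 0.91 (95% interval 0.18 to 1.63, adjusted p = 0.0879). The Irgm1 difference was 1.18 without control jejunum 1 (adjusted p = 0.047), where it alone of the 36 was called, and 0.57 without control ileum 2 (adjusted p = 0.277). The Igtp difference was -1.22 without control ileum 2 (adjusted p = 0.0297), where Gbp3, Ifi35 and Xaf1 were called too, and -0.40 without control ileum 1 (adjusted p = 0.303).

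The regulators showed some of the widest ileal ranges. Xaf1, an antagonist of the apoptosis inhibitor XIAP, was at 9.57, 9.02 and 9.12 in control jejunum, 8.54, 9.05 and 8.41 in mutant jejunum, and 8.28, 9.40 and 7.33 in control ileum. Trim30a, a tripartite motif protein that dampens NF-kappaB signalling, was at 8.58, 7.28 and 8.90 in control jejunum, 7.26, 8.90 and 7.61 in mutant jejunum, and 7.27, 9.28 and 5.98 in control ileum. For both genes control ileum 2 was the highest and control ileum 3 the lowest mouse of its group, and all groups overlapped. The ileal differences were -0.90 for Xaf1 (adjusted p = 0.16) and -0.74 for Trim30a (adjusted p = 0.53). For Xaf1 it was -1.44 without control ileum 2 (adjusted p = 0.0144) and -0.40 without control ileum 3 (adjusted p = 0.466), and for Trim30a the same omissions gave -1.63 (adjusted p = 0.105) and 0.024 (adjusted p = 0.987). Trim30a has closely related neighbours, which its probe set may detect too.

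No member was called between mutant jejunum and control ileum, in a comparison that called 2.65% of all probe sets. An unadjusted limma p under 0.05 was found for 2 members, Gbp3 and Ifi35 (5.56%), against 16.3% of all probe sets tested. Both lay higher in the mutant, by 0.63 for Gbp3 (adjusted p = 0.181) and by 0.39 for Ifi35 (adjusted p = 0.211). The median difference over the 36 was 0.01, and it lay between -0.22 without mutant jejunum 2 and 0.30 without control ileum 2. The 3 comparisons share their arrays in pairs, so their values are not independent of each other.

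Most of the interferon response genes varied more between mice of the same group than the typical probe set did. The pooled within-group standard deviation had a median of 0.56 over the 36 genes against 0.22 over all probe sets tested, and 33 of the 36 exceeded that median. For 24 of the 36 it exceeded 0.41, the 90th percentile of all probe sets tested. It ran from 0.18 for Socs1, the cytokine signalling inhibitor, to 1.21 for Rsad2. Socs1 lay near the limit for testing, at 4.94 to 5.58, so its narrow spread may reflect weak signal. The genes named in the next sentences were chosen after their values were seen.

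Rsad2, which encodes the antiviral enzyme viperin, had log2 levels of 10.45, 8.54 and 8.73 in control jejunum, 9.18, 10.11 and 7.48 in mutant jejunum, and 8.41, 10.23 and 7.87 in control ileum. Its other 2 probe sets gave the same highest mouse in each group. Usp18, the protease that removes ISG15 from proteins and restrains the type I receptor, was at 10.09, 7.89 and 8.82 in control jejunum, 8.92, 9.57 and 7.66 in mutant jejunum, and 9.46, 9.79 and 7.39 in control ileum. Within each group these genes spanned between 1.91 and 2.63 log2 units, while the largest difference between their group means was -0.40, for Rsad2 in ileum against control jejunum. Oas2 ranged from 5.53 to 8.22 within control ileum, and Mx2, a dynamin-like GTPase that blocks viruses at the nucleus, from 4.69 to 6.93 within control jejunum.

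**Figure D2:**
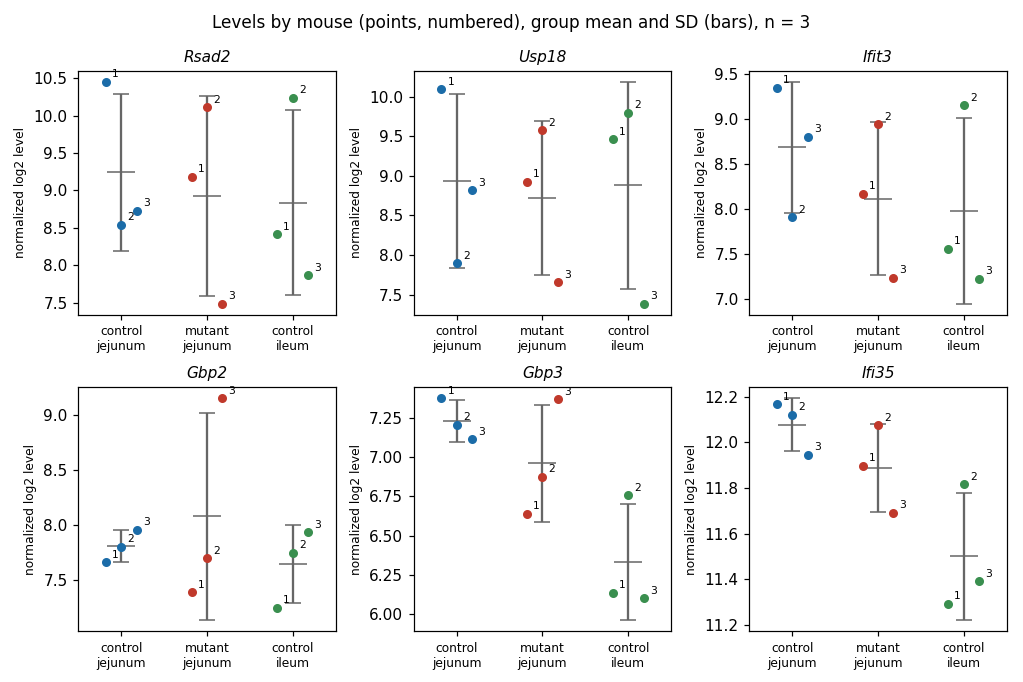
Quantile-normalized log2 levels of 6 interferon response genes in each mouse (points, numbered by replicate), with group mean and SD (bars, n = 3); the vertical axes differ and do not start at 0. Rsad2, Usp18 and Ifit3 are highest in control jejunum 1, mutant jejunum 2 and control ileum 2, while Gbp2 and Gbp3 are highest in mutant jejunum 3 among the mutants.

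The same mouse stood highest for nearly all the genes. Control jejunum 1 had the highest level in its group for 31 of the 36 genes, against 35.1% of all probe sets tested. Mutant jejunum 2 was highest for 31 of the 36, against 28.8% of all probe sets. Control ileum 2 was highest for 30, against 29.8%. Mutant jejunum 3 was lowest in its group for 26 of the 36, where 39.2% of all probe sets were lowest in that mouse. These counts describe which mice were high or low, were made after the levels were seen, and rest on genes that are not independent of each other. All 13 antiviral effectors tested were highest in control jejunum 1 and in control ileum 2, and 12 of the 13 were highest in mutant jejunum 2, the exception being Mx1, whose mutant levels lay within 0.06 of each other. Averaged over the 13 effectors, these mice lay 0.62, 0.92 and 0.49 above their group means on the log2 scale, and mutant jejunum 3 lay at -0.64.

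**Figure D3:**
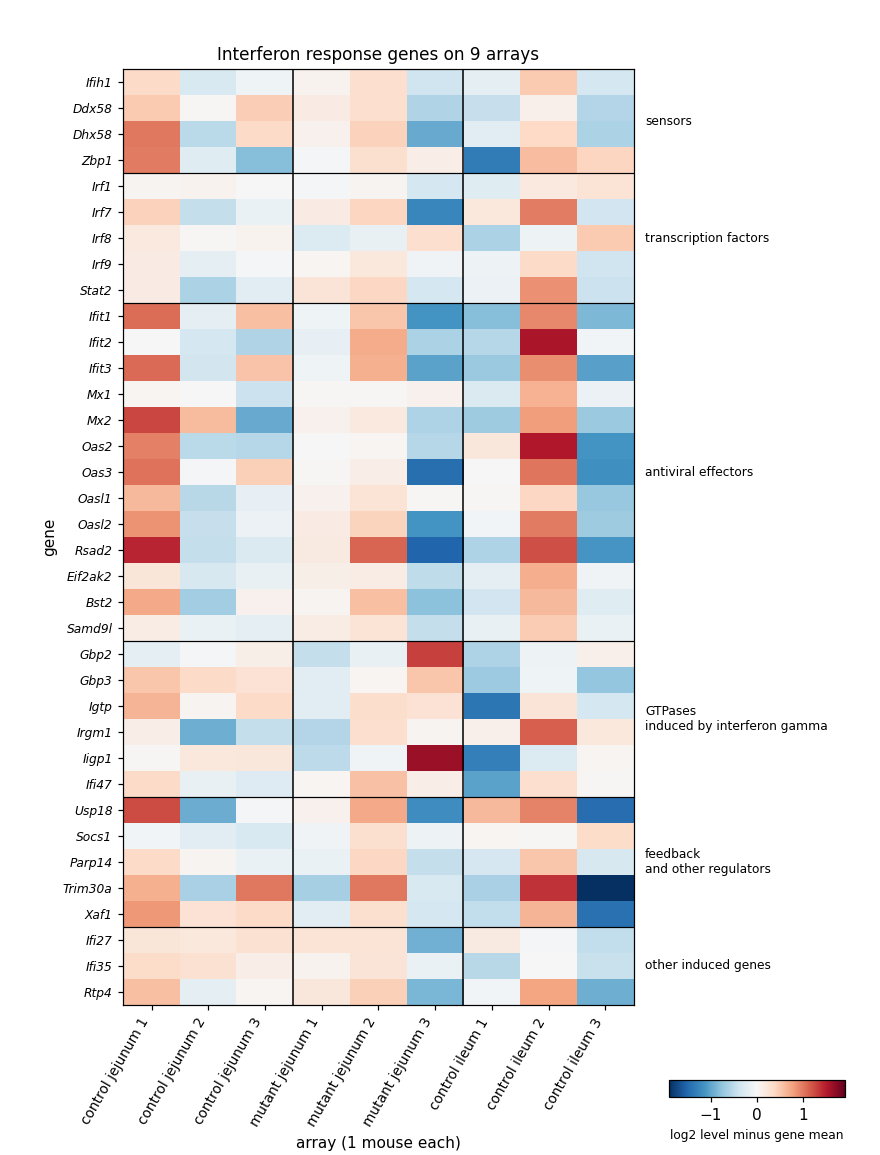
Heat map of the 36 interferon response genes (rows, grouped by role) on the 9 arrays (columns), coloured by log2 level minus the gene's mean over the 9 arrays. Control jejunum 1, mutant jejunum 2 and control ileum 2 are red for most rows, and mutant jejunum 3 is blue for most rows outside the GTPases.

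Other interferon-induced genes, a list of 41 with 33 tested, were highest in control jejunum 1 for 26 of 33 and in control ileum 2 for 27 of 33. In mutant jejunum 2 they were highest for 15 of 33. Their pooled standard deviation had a median of 0.39. Genes of the immunoproteasome and of peptide loading, which interferon gamma induces for antigen presentation, varied less, with a median of 0.19 over 9 genes, and all 9 were highest in control jejunum 1. Among the mutants, 6 of the 9 were highest in mutant jejunum 3 and 1 in mutant jejunum 2, unlike most members. Of all probe sets tested, 39% were highest in mutant jejunum 3 and 28.8% in mutant jejunum 2.

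The GTPases of the interferon gamma response ran in a different order over the mutant mice than the antiviral effectors. Iigp1, an immunity-related GTPase that disrupts parasite vacuoles, was at 8.14, 8.32 and 8.33 in control jejunum, 7.62, 8.05 and 9.77 in mutant jejunum, and 6.80, 7.85 and 8.16 in control ileum. Gbp2 was at 7.66, 7.80 and 7.95 in control jejunum, 7.39, 7.70 and 9.16 in mutant jejunum, and 7.25, 7.75 and 7.93 in control ileum. For both genes mutant jejunum 3 was the highest of all 9 mice, and the second probe set of each gave the same highest mouse. Neither was called: Iigp1 lay 0.88 higher in mutant jejunum than in control ileum (adjusted p = 0.408, and 0.23 without mutant jejunum 3 or 0.48 without control ileum 1), and Gbp2 lay 0.27 higher in mutant than in control jejunum (adjusted p = 0.774). Mutant jejunum 3 was highest in its group for 3 of the 6 GTPases, namely Gbp2, Gbp3 and Iigp1, a count near the 39% of all probe sets tested. Mutant jejunum 2 was highest for the other 3, Igtp, Irgm1 and Ifi47, against 28.8% of all probe sets. Mutant jejunum 1 was lowest for all 6, where 31.9% of all probe sets were lowest in that mouse. Averaged over the 6, mutant jejunum 3 lay 0.49 above its group mean, where the 13 effectors lay at -0.64. Gbp2 and Iigp1 carried most of that average, since Igtp was at 9.81 in this mouse against a group mean of 9.67, Irgm1 at 9.09 against 8.98 and Ifi47 at 9.66 against 9.78.

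Markers of other cells were set beside this order. The 5 T cell markers tested were all highest in control jejunum 1 and in mutant jejunum 3, and 3 of the 5 were highest in control ileum 2. The shares of all probe sets highest in these mice were 35.1%, 39% and 29.8%. In mutant jejunum 2 their mean lay at -0.05 from the group mean, and that of the 9 macrophage and dendritic cell markers at -0.06, while the antiviral effectors lay at 0.49. In control ileum 2 the T cell markers lay at 0.40 and the macrophage and dendritic cell markers at -0.06. In mutant jejunum 3, where Gbp2 and Iigp1 were high, the T cell markers lay at 0.14, the intraepithelial lymphocyte and natural killer markers at 0.24 and the macrophage and dendritic cell markers at 0.24. The rise was not particular to these cells, since markers of endothelium lay at 0.40 and of plasma cells at 0.23 there. Markers of B cells (-0.02), enterocytes (-0.16), smooth muscle (-0.38), Paneth cells (-0.13) and pancreatic acinar cells (-0.11) lay below their group means in that mouse. Gzmb, the granzyme of cytotoxic lymphocytes, was at 10.42, 10.13 and 11.40 in mutant jejunum 1 to 3, and Cxcl9, a chemokine induced by interferon gamma, at 7.13, 7.42 and 8.58. Both were named outside the rule used for the other lists. Of the 33 other interferon-induced genes tested, which include Cxcl9, 12 were highest and 17 lowest in mutant jejunum 3. Of all probe sets tested, 39% were highest and 39.2% lowest in that mouse. The mean of the 33 lay at -0.07 from its group mean there. The part of the marked cell types in the levels of the interferon response genes was not tested.

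**Figure D4:**
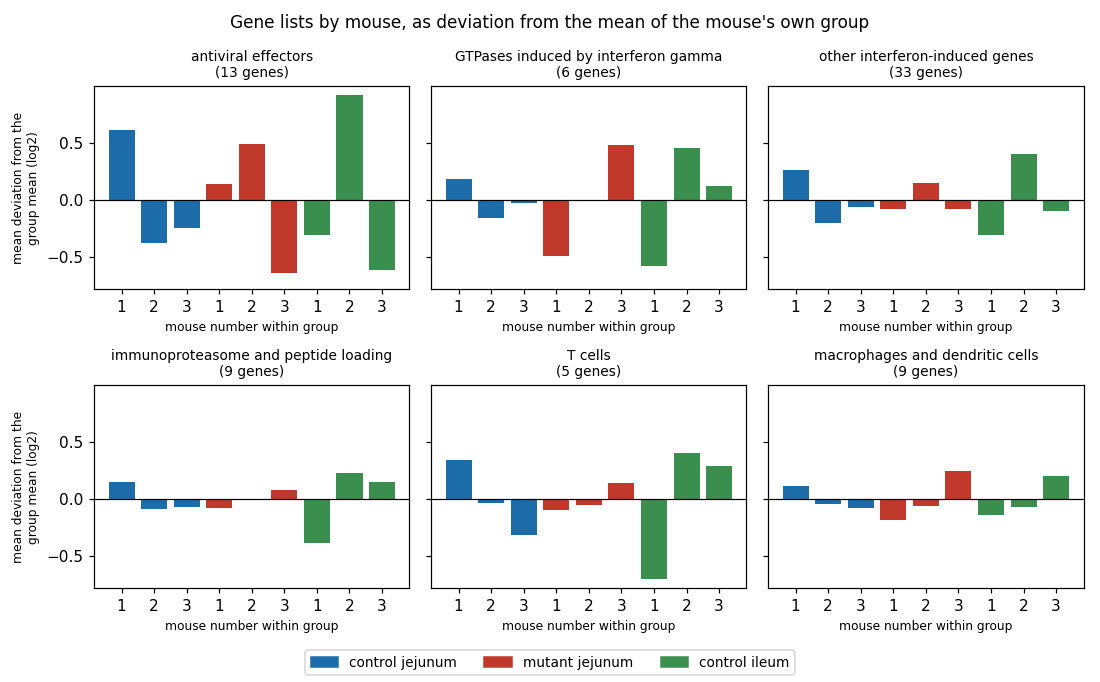
Mean deviation from the mouse's own group mean (log2, vertical axis) for 6 gene lists, 1 bar per mouse coloured by group. The 13 antiviral effectors reach 0.92 in control ileum 2 and -0.64 in mutant jejunum 3, whereas the 6 GTPases reach 0.49 in mutant jejunum 3.

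The inputs of the pathway were examined on lists chosen for their place in it. None of the 10 interferon genes listed was tested, and the probe sets of Ifng and Ifnb1 were too dim for it. Ifng lay between 4.31 and 4.996 and Ifnb1 between 4.47 and 5.05 on all 9 arrays. Among 11 receptors and JAK-STAT components, 10 were tested, and 2 fell in the mutant while none rose, where 3.56% of all probe sets were called in either direction. Ifnlr1, the specific chain of the type III interferon receptor, was at 7.75, 8.01 and 7.81 in control jejunum, 7.06, 7.15 and 6.87 in mutant jejunum, and 7.22, 6.87 and 6.65 in control ileum. Ifnar2, the signalling chain of the type I receptor, was at 7.92, 7.53 and 7.95 in control jejunum, 7.14, 6.99 and 6.97 in mutant jejunum, and 6.81, 6.49 and 6.48 in control ileum. For both receptor chains every control jejunal mouse lay above every mouse of the other groups.

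Ifnlr1 fell by 0.83 in the mutant (limma adjusted p = 0.0213) and fell by 0.94 in ileum (limma adjusted p = 0.00334). Ifnar2 fell by 0.77 in the mutant (limma adjusted p = 0.0249) and fell by 1.20 in ileum (limma adjusted p = 0.00058). Its second probe set differed by -0.50 in the mutant (adjusted p = 0.155) and -0.76 in ileum (adjusted p = 0.012), and the third was called in neither. Ifnar1, the partner chain of the type I receptor, differed by 0.16 (adjusted p = 0.558) and -0.09 (adjusted p = 0.678). The mutant call of Ifnlr1 ended when control jejunum 2 (adjusted p = 0.0964), control jejunum 3 (0.0736), mutant jejunum 2 (0.0566) or mutant jejunum 3 (0.0544) was left out. That of Ifnar2 ended when control jejunum 1 (adjusted p = 0.0718), control jejunum 3 (0.116), mutant jejunum 2 (0.0946) or mutant jejunum 3 (0.0566) was left out, and also without scaling (0.0552) or with median centring (0.0541). The ileal calls of both receptor chains held in all 20 alternative settings. Ifngr1, the ligand-binding chain of the interferon gamma receptor, was called higher in ileum by 0.45 (limma adjusted p = 0.0487), a call that did not hold in 14 of 20 alternatives and turned to -0.092 without scaling between arrays.

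**Figure D5:**
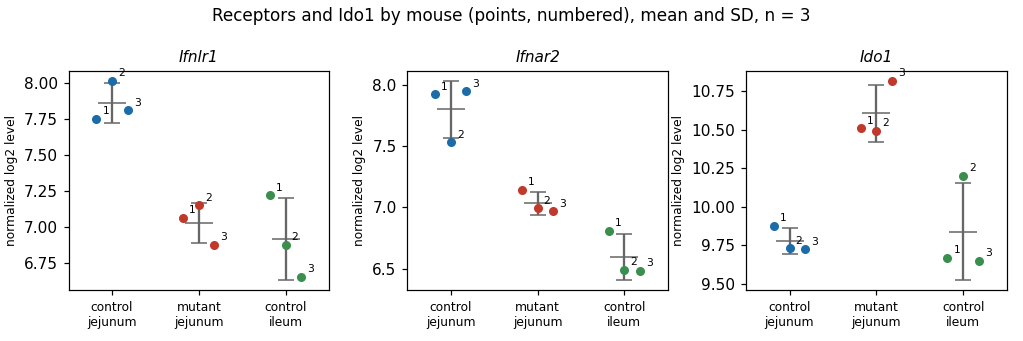
Quantile-normalized log2 levels of Ifnlr1, Ifnar2 and Ido1 in each mouse (points, numbered by replicate), with group mean and SD (bars, n = 3); the vertical axes differ and do not start at 0. Control jejunum lies above both other groups for Ifnlr1 and Ifnar2, and mutant jejunum lies above both other groups for Ido1.

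Among the 33 other interferon-induced genes tested, 1 was called in the mutant against control jejunum, a share near the 3.56% of all probe sets. Ido1, the tryptophan-degrading enzyme induced by interferon gamma, was at 9.88, 9.73 and 9.72 in control jejunum, 10.51, 10.49 and 10.82 in mutant jejunum, and 9.67, 10.20 and 9.65 in control ileum. All 3 mutant mice lay above the other 6. Ido1 rose by 0.83 against control jejunum (limma adjusted p = 0.0172) and lay 0.77 above control ileum (limma adjusted p = 0.0306). Leaving out control jejunum 2 or control jejunum 3 ended the first call (adjusted p = 0.075 and 0.0794), and the second did not hold in 10 of 20 alternatives. In ileum, 2 of the 33 fell and 1 rose, a smaller share than the 16.2% of all probe sets called there, against which the next 2 lists are also to be read. Slfn8, a schlafen protein, fell by 0.96 (limma adjusted p = 0.00895), and Uba7, the activating enzyme for ISG15, fell by 0.68 (limma adjusted p = 0.0442). Ifitm2, a membrane protein that hinders viral entry, rose by 0.85 (limma adjusted p = 0.0135). Of 9 upstream sensing genes tested, Mavs, the mitochondrial adaptor of RIG-I and MDA5, fell by 0.73 in ileum (limma adjusted p = 0.0165), and Ikbke, a kinase that activates interferon regulatory factors, rose by 0.55 (limma adjusted p = 0.0153). Of 9 immunoproteasome and peptide loading genes tested, Tap2, a subunit of the peptide transporter, fell by 0.54 in ileum (limma adjusted p = 0.0427). None of 6 negative regulators was called, and the largest differences were 0.40 for Socs3 (adjusted p = 0.769) and 0.31 for Ptpn6 (adjusted p = 0.345), both of mutant jejunum against control ileum.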

How the data were processed

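RNA levels were measured on Affymetrix mouse expression arrays in 3 groups of 3 mice. The authors deposited linear intensity values, made with the Affymetrix software GCOS per the submitters' processing notes. No version or setting of it is stated there. The deposited intensities were not on a common scale (trimmed means 96.8 to 179.8), so log2(intensity + 16) values were quantile-normalized, which hides any change shared by all transcripts. Of 45101 probe sets, 64 controls were left out, and those above the 40th percentile of all values (4.95) on 3 or more arrays, 29307 in number, were tested. Differences were fitted in limma 3.58.1 (R 4.3.3) over all 9 arrays, with 3 contrasts from 1 fit, an intensity trend, two-sided tests and Benjamini-Hochberg adjustment over all probe sets tested. The procedure was tested on simulated data with independent noise for each probe set. Those data hold no genes that move together by mouse, as the members did here. Control segments came from independent mice per the series' design text, so errors include the spread between animals, and the number of arrays limits the precision. The brightest tested probe set stood for a gene. Gene names come from GEO's platform annotation, which gives 1 gene for 34945 probe sets, several for 932 and none for 9160. Values per mouse are given for members called in any contrast and for those with the largest differences until 12 were named, and from other lists for the called genes, at most 4 a list, or else the 2 with the largest differences. Members, lists and this rule were chosen with earlier results of these data known. The labels do not pair the mice by replicate number. Deviations from group means correlated between -0.07 and 0.17 for arrays of the same number, which cannot exclude a shared litter, day or batch. Alternatives covered scaling, pseudocount, filter, model, a replicate block and leaving out each mouse. Sequences are RefSeq's, read from its promoter table.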

Additional observations from a re-analysis of the deposited data

How the results depend on the processing

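No member was called between mutant and control jejunum in any of the 21 alternatives. Between control ileum and control jejunum, 6 members were called without scaling between arrays, and leaving out 1 mouse gave 0 to 4. Between mutant jejunum and control ileum, 5 were called without scaling. Without scaling, the median of all probe sets tested itself shifted by -0.40 in ileum against control jejunum and by 0.41 in mutant jejunum against ileum, so those calls include a shift common to the arrays. With a replicate block the counts were 0, 2 and 0 and the median differences over the 36 were those without it (-0.15, -0.14 and 0.01 in the order mutant against control jejunum, ileum against control jejunum, mutant against ileum). Over all alternatives these medians ran from -0.27 to 0.11, from -0.65 to 0.065 and from -0.22 to 0.60, so that each changed sign, the first 2 also with array weights (0.098 and 0.065). The direction turned for Trim30a in ileum without control ileum 3 (0.024, the other end of the range over left-out mice being -1.63), for Ifngr1 in ileum without scaling (-0.092) and for Socs3 between mutant jejunum and ileum without mutant jejunum 3 (-0.069, in a range up to 1.04); the cause was not tested. The ileal calls of Uba7 and Tap2 did not hold in 12 of 20 alternatives each, that of Ikbke in 4, that of Mavs in 2 (adjusted p up to 0.0566) and that of Ifitm2 in 1 (0.28 without scaling, adjusted p = 0.26). In 7 other settings, chosen after seeing the data, the genes highest in control jejunum 1 numbered 30 to 32 of 36, those highest in control ileum 2 also 30 to 32, and those lowest in mutant jejunum 3 from 25 to 29. Levels near the dim end, such as those of the interferon genes and Socs1, are limited by signal over background.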

Other observations

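Xaf1 has a second probe set, much dimmer in most mice, that differed from the first. It stood at 8.78 in mutant jejunum 1 and 8.37 in control ileum 3, and between 4.93 and 5.39 in the other 7 mice. The brighter Xaf1 probe set was at 8.54 in mutant jejunum 1 and at 7.33, its lowest level, in control ileum 3. Mutant jejunum 3, the lowest of the 9 mice for Oas3, Rsad2 and Irf7, was also the lowest for Ifi27, an interferon-induced mitochondrial protein, which stood at 9.76, 9.72 and 9.82 in control jejunum, 9.79, 9.79 and 8.62 in mutant jejunum and 9.70, 9.50 and 9.06 in control ileum. Its second probe set gave 8.16 in that mouse and 9.32 and 9.39 in the other mutants. Enterocyte markers in mutant jejunum 3 lay at -0.16 from their group mean.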
